A study of Mus musculus with 4 samples.

Results

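A set of 10 genes that mark reactive glia was followed across the cell types of the GCLC-KO mouse cortex: Gfap, Vim, Serpina3n, Bcl3, Il33, Cd44, Stat3, Socs3, Osmr and Lcn2. The count matrices list 32285 genes, from which these were taken by symbol. The comparison that selected them was 6 against 3 months in astrocytes, oligodendrocytes, oligodendrocyte precursor cells (OPC) and microglia, with Bcl3 included for its change in oligodendrocytes. Their values in that comparison are therefore given as a description, without a test. Tests of the 10 genes are given only for other comparisons. These are between glial cell types of the same mouse, between glial states within a cell type, and between ages in neurons. The glial ones pool both ages, so they are not independent of the sums that selected the genes.

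Single-nucleus RNA-seq was performed on nuclei sorted from cortical regions in which rod-shaped microglia were abundant. All mice were GCLC-KO, from GCLC floxed mice on a C57BL/6NTac background crossed with CaMKII-Cre mice. Gclc encodes the catalytic subunit of the enzyme that starts glutathione synthesis. The CaMKII promoter drives Cre in neurons, so the deletion of Gclc was not directed at glia. Which types of neuron it reached is not given in the paper. The groups were 3 months of age (3M, n = 2) and 6 months of age (6M, n = 2), 1 mouse per library and untreated. A mouse without the deletion was not analysed here, so no value separates the effect of the deletion from that of age.

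Glia that meet injury, inflammation or dying neurons enter a reactive state. Gfap and Vim encode intermediate filament proteins that accumulate in reactive astrocytes, Serpina3n encodes a secreted inhibitor of serine proteases, and Lcn2 encodes the secreted iron-binding protein lipocalin 2. Il33 is an alarmin of the IL1 family that is stored in nuclei. Cd44 is the receptor for hyaluronan, and Osmr is the oncostatin M receptor, which signals together with gp130 through Jak kinases. Stat3 is a transcription factor activated by such receptors, Socs3 is an inhibitor of that signalling that Stat3 induces, and Bcl3 is an atypical IkB protein that acts in the nucleus with NF-kB p50 and p52. C4b, a complement component, marks a reactive state of oligodendrocytes and was used to divide them.

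The 4 libraries held 30515 nuclei after the study's filters, between 6802 and 8750 each, with 59262228 to 65894316 unique molecular identifiers (UMIs) per library. Between 12 and 19 cell barcodes were shared by each pair of libraries. The second 3M library (3M-2) stood apart: its median of 5994 UMIs per nucleus was below the 7035 to 8140 of the others, and Gabra6, a marker of granule-type neurons, had 4.87 CPM (UMIs per 1000000) in it against 0.08 to 0.37. Gclc itself had 35.1 to 43.6 CPM over all nuclei, and without a mouse that lacks the deletion this level does not check the genotype. Nuclei were assigned by marker genes. The gates held 45 to 82 astrocytes, 836 to 1500 oligodendrocytes, 168 to 250 OPC and 358 to 681 microglia per library. All 20 astrocyte, 15 oligodendrocyte and 14 microglia markers were detected in the gates they defined. None of the 10 genes was used for gating.

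The 250 bases before and 50 bases after the annotated start of each gene were searched on both strands for the STAT site TTCNNNGAA, the NF-kB consensus and the AP-1 site TGANTCA. The promoters of Gfap, Socs3, Bcl3 and Serpina3n are printed because these genes carried the main patterns: Gfap in astrocytes, Bcl3 and Serpina3n in oligodendrocytes, and Socs3 as the feedback gene of Stat3. They are RefSeq sequences of GRCm38.p6, written 5′ to 3′ with matches in capitals.
Gfap, chr11:102897151-102897450, minus strand: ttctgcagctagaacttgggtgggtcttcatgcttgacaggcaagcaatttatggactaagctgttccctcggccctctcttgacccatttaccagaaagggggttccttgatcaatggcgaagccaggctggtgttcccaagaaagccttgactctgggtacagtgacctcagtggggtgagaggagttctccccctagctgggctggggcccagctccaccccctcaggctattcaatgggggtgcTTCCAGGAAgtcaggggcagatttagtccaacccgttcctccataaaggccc
Socs3, chr11:117969317-117969616, minus strand: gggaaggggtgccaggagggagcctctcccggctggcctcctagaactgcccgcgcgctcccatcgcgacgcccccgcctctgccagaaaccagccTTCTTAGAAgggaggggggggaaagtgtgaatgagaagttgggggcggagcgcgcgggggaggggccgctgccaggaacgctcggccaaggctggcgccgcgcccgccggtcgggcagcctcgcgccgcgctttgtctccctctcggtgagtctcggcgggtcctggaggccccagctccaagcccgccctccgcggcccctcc
Bcl3, chr7:19822706-19823005, minus strand: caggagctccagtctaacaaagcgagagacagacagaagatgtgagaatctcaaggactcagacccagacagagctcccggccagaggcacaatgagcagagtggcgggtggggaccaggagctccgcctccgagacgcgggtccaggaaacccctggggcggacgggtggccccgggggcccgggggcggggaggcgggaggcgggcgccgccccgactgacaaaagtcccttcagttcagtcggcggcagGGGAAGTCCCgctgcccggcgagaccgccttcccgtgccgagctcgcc
Serpina3n, chr12:104406458-104406757, plus strand: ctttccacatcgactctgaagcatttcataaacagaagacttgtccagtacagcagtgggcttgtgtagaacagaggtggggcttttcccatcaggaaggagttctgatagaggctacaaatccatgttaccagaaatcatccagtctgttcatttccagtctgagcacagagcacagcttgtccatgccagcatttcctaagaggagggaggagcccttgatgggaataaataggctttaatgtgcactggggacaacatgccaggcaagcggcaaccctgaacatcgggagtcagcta
The Gfap promoter held 1 STAT match, beginning at -2 relative to the start, and the Socs3 promoter held 1 at -154. The Bcl3 promoter held 1 NF-kB match just after the start. Vim had 3 NF-kB matches, a pair of them overlapping, and Osmr had 1 AP-1 match. No match lay in these windows of Serpina3n, Il33, Cd44, Stat3 and Lcn2. Among 32851 promoters of the same length, 8.3% held a STAT match, 8.46% an NF-kB match and 7.81% an AP-1 match, so single matches are common, and a match is only a description of the letters.

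The genes differed most in where their transcripts were found. Of 8221 Il33 UMIs in all nuclei, 74.8% were in oligodendrocytes. Oligodendrocytes also held 50.3% of 292 Bcl3 UMIs and 43.0% of 300 Serpina3n UMIs, and excitatory neurons 17.8% and 34.3%. These shares were mainly those of the 6M libraries, with 253 Bcl3 and 252 Serpina3n UMIs. At 3M oligodendrocytes held 12.8% of 39 Bcl3 and 12.5% of 48 Serpina3n UMIs, and excitatory neurons 41.0% and 54.2%. Gfap, the classical astrocyte marker, had 21.3% of its 895 UMIs in the small astrocyte gate, 14% in oligodendrocytes and 37.1% spread thinly over the far more numerous excitatory neurons. Excitatory neurons held 75.0% of Cd44, 72.3% of Socs3 and 53.4% of Stat3 UMIs. They also held most UMIs of every library, such as 46844027 of 63194878 in 3M-1. The mean Cd44 level in them was 2.45 CPM, below astrocytes (25.5 CPM) and microglia (10.8 CPM) and above the other glia and inhibitory neurons. Socs3 and Stat3 were at 1.75 and 24.6 CPM in them, below the 11.7 and 166 CPM of microglia. Osmr, with 70 UMIs in all, was divided among astrocytes (22.9%), vascular nuclei (21.4%) and excitatory neurons (37.1%). Lcn2 was at the limit of detection, with 1 UMI in all kept nuclei, in an excitatory neuron of 3M-1. In oligodendrocytes a count of 0 allows a Lcn2 level of up to 0.926 to 1.99 CPM per library, and in the smaller astrocyte sums up to 13.9 to 22.0 CPM.

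**Figure D1:**
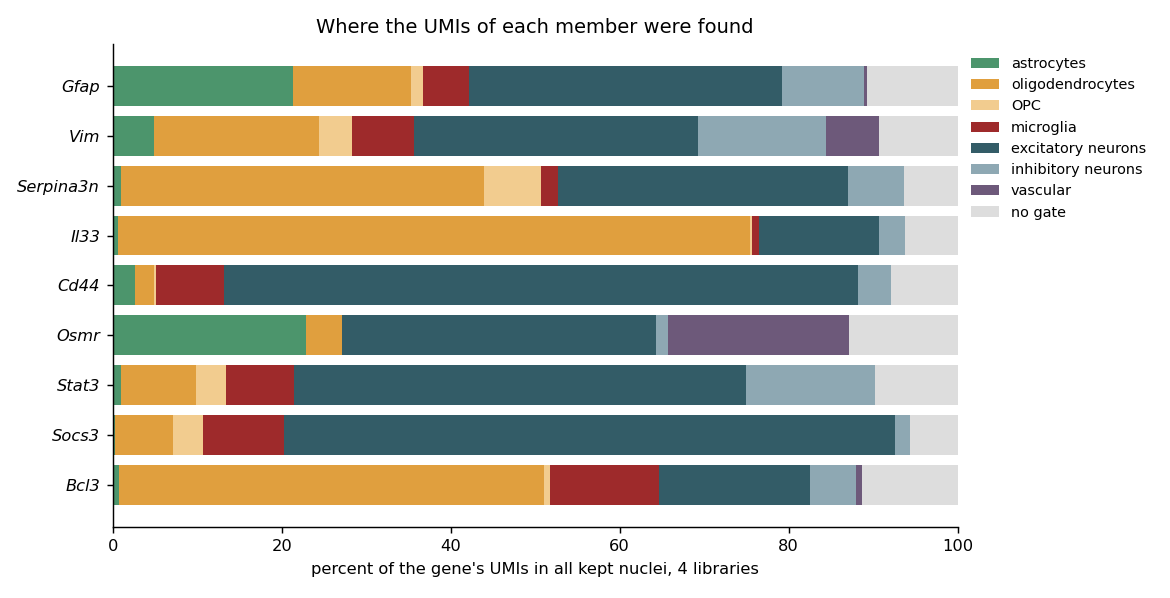
Stacked bars give the percent of each gene's UMIs, summed over the 4 libraries, that fell in each cell type gate (x axis, percent; grey, nuclei in no gate). Il33 is dominated by oligodendrocytes (74.8%). Excitatory neurons, which held most UMIs of every library, hold 75.0% of Cd44 and 72.3% of Socs3.

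Gfap, in chr11:102887336-102900912 on the minus strand, overlaps the lincRNA Gm26668 of the opposite strand. The strand setting of the counting is not given in the sources used here, so reads of overlapping genes may not be told apart. In astrocytes the Gfap level was 223.7 CPM in 3M-1, 106.5 CPM in 3M-2, 256.2 CPM in 6M-1 and 420 CPM in 6M-2, from 47, 23, 35 and 86 UMIs. Both 6M libraries lay above both 3M libraries, with a ratio of the means of 2.05, but 3M-1 and 6M-1 were close. In oligodendrocytes the Gfap level was 3.24, 7.29, 17.3 and 17.0 CPM in the same order of libraries, and the groups again did not overlap. In OPC it was 0.90, 1.5, 8.68 and 5.51 CPM, and in microglia 6.80, 0, 18.9 and 14.7 CPM. Gfap was thus higher at 6M in each of the 4 glial gates. In OPC this rested on 1, 1, 7 and 4 UMIs, and the counting intervals of 3M-2 and 6M-2 overlap. In microglia it rested on 7, 0, 24 and 17 UMIs. After each astrocyte was thinned to 1000 UMIs, 15.7%, 7.5%, 17.8% and 29.6% of astrocytes had a Gfap UMI (29.4%, 18.3%, 33.3% and 61.1% without thinning), against at most 0.255% of thinned excitatory neurons. Summed astrocyte markers were 219 and 211 CPM in 3M oligodendrocytes against 261 and 255 CPM at 6M. In microglia they were 437 and 352 CPM at 3M against 657 and 634 CPM at 6M. Much of these sums was Slc1a3, at 341, 235, 480 and 465 CPM in microglia. In oligodendrocytes Slc1a3 was at 156.5, 119.4, 138.5 and 126.2 CPM, and the groups overlapped. Slc1a2 was higher at 6M there (28.8, 47.7, 61.1 and 68.4 CPM), as was Aqp4 in microglia (4.85, 7.19, 17.3 and 12.1 CPM). Gja1 was at most 1.80 CPM in microglia. The part of RNA from other cells in the Gfap values of oligodendrocytes and microglia was not tested.

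Vim, at chr2:13573927-13582826 on the plus strand, was sparse. Astrocytes held 0 and 1 Vim UMIs in the 3M libraries and 2 and 7 in the 6M libraries. Oligodendrocytes held 4, 3, 16 and 17 UMIs, or 1.62, 1.99, 4.94 and 5.78 CPM, and the 6M mean was 2.97 times the 3M mean. Microglia showed 2.91, 1.80, 3.94 and 5.19 CPM. In OPC Vim was at 2.69 and 3.00 CPM at 3M and 2.48 and 1.38 CPM at 6M. These values came from 3, 2, 2 and 1 UMIs, too few to show a direction. Both 3M libraries were above both 6M libraries for 17.7% of the genes tested in OPC, among which Vim was not. Vascular nuclei, of which there were only 6 to 22 per library, held 0, 1, 5 and 7 UMIs. Of the other filament genes, Synm, which encodes the filament partner synemin, was at 17.0, 23.2, 39.2 and 35.4 CPM in oligodendrocytes, and its age difference did not pass the test (log2 fold change 0.83 ± 0.25 SE, adjusted p = 0.378). Nes, the gene for nestin, had no UMI in astrocytes or oligodendrocytes. In oligodendrocytes 5 of the 7 listed intermediate filament genes could be tested, with a median log2 fold change of 0.42 against 0.00 for all genes, and none was called.

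Serpina3n, at chr12:104406729-104414329 on the plus strand, was, among glia, mainly found in oligodendrocytes and OPC. In oligodendrocytes it was at 2.03 CPM in 3M-1 and 0.66 CPM in 3M-2, from 5 and 1 UMIs, against 14.8 CPM in 6M-1 and 25.5 CPM in 6M-2, from 48 and 75 UMIs. The 6M mean was 15.0 times the 3M mean, and the groups were far apart. In OPC it was at 0.90, 7.49, 13.6 and 4.14 CPM, and the groups overlapped. Microglia had at most 2.36 CPM in any library. Astrocytes had no Serpina3n UMI in 3 of the 4 libraries and 3 UMIs (14.7 CPM) in 6M-2. A count of 0 in these small astrocyte sums still allows up to 13.9 to 22.0 CPM, so a level like that of 6M oligodendrocytes may not be detectable in astrocytes at this depth.

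Il33, at chr19:29925114-29960718 on the plus strand, was abundant in oligodendrocytes at both ages. Its level there was 503 CPM in 3M-1, 378 CPM in 3M-2, 714 CPM in 6M-1 and 689 CPM in 6M-2, with a ratio of the means of 1.59 and no overlap. Of oligodendrocytes thinned to 1000 UMIs, 32.0%, 27.1%, 44.8% and 43.1% had an Il33 UMI (55.8%, 37.9%, 61.9% and 65.0% without thinning), against 0.414% to 0.845% of excitatory neurons. Astrocytes were at 19.0, 78.7, 87.8 and 83.0 CPM, where 3M-1 was low and the other 3 were alike. OPC had 1.80, 4.50, 4.96 and 17.9 CPM, and microglia 11.7, 10.8, 15.0 and 23.4 CPM. The receptor of IL33 is encoded by Il1rl1, and its UMIs in glia were found only in microglia, at 15.5, 16.2, 9.45 and 6.92 CPM. The co-receptor gene Il1rap was highest in oligodendrocytes, at 543, 503, 516 and 557 CPM, against 22.3 to 41.7 CPM in microglia. Neither passed the age test in microglia (Il1rl1 log2 fold change -0.96 ± 0.46 SE, adjusted p = 0.496; Il1rap 0.66 ± 0.31 SE, adjusted p = 0.484), nor did Il1rap in oligodendrocytes (-0.06 ± 0.17 SE, adjusted p = 0.969). Slc22a17, which encodes a receptor for lipocalin 2, was present in all glia (58.6 to 330 CPM) although almost no Lcn2 was detected.

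Cd44, at chr2:102811141-102901665 on the minus strand, overlaps the small nuclear RNA gene Gm23731. It was seen in astrocytes and microglia among glia. Microglia had 3.88 and 5.39 CPM at 3M, from 4 and 3 UMIs, and 15.0 and 19.0 CPM at 6M, from 19 and 22 UMIs. The 6M mean was 3.67 times the 3M mean and the groups did not overlap. Astrocytes held 1 and 1 UMIs at 3M and 10 and 4 UMIs at 6M, or 4.76, 4.63, 73.2 and 19.5 CPM. The highest astrocyte library, 6M-1, was also the one with the highest level of foreign oligodendrocyte markers in its astrocyte gate (439 CPM, against 55.5 to 166 CPM in the others), and the part of other cells in its Cd44 level was not tested. Oligodendrocytes had at most 1.99 CPM.

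Osmr, at chr15:6813577-6874969 on the minus strand, was found in astrocytes at 9.52, 13.9, 29.3 and 34.2 CPM, from 2, 3, 4 and 7 UMIs. The 6M libraries were both above the 3M libraries (ratio of the means 2.71), on counts so low that their counting intervals overlap. No Osmr UMI was found in OPC or microglia, where a count of 0 allows up to 2.36 to 5.39 CPM per library. Of the genes for related receptors, the shared subunit gp130 (Il6st) was at 112 to 144 CPM in microglia and 23.1 to 58.6 CPM in astrocytes, Lifr was at 84.0 to 189 CPM in all glia, and Il6ra was at 280 to 423 CPM in microglia and at most 5.51 CPM in the other glia. None of these passed the age test in microglia or, where they could be tested, in oligodendrocytes.

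Stat3, at chr11:100885098-100939540 on the minus strand, overlaps Stat5a of the plus strand. It was expressed in all glia. Astrocytes were at 105, 97.2, 58.6 and 137 CPM, and the groups overlapped, with a ratio of the means of 0.967. Oligodendrocytes were at 69.7, 41.1, 67.6 and 101 CPM and overlapped, with 3M-2 the lowest and 6M-2 the highest. Microglia were at 155 and 146 CPM at 3M and 158 and 206 CPM at 6M, a ratio of 1.21 with 3M-1 and 6M-1 nearly equal.

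Socs3, at chr11:117966079-117970047 on the minus strand, did not have the same order of ages in each cell type. In oligodendrocytes it had 1 and 2 UMIs at 3M against 14 and 14 UMIs at 6M (0.405, 1.33, 4.32 and 4.76 CPM). In microglia the order was the opposite, with 10.7 and 18.0 CPM at 3M and 9.45 and 8.65 CPM at 6M, from 10 to 12 UMIs in each library. OPC had 4 UMIs in every library, and astrocytes 1 UMI, in 6M-1. In microglia, Socs3 was the only one of the 10 genes with both 3M libraries above both 6M libraries, an order found for 17.8% of the genes tested.

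Bcl3, at chr7:19808462-19822770 on the minus strand, overlaps the antisense genes Gm16175 and Gm16174. In oligodendrocytes it was at 0.811 CPM in 3M-1 and 1.99 CPM in 3M-2, from 2 and 3 UMIs, and at 22.2 CPM in 6M-1 and 23.8 CPM in 6M-2, from 72 and 70 UMIs. The 6M mean was 16.4 times the 3M mean, and the libraries of one age lay close together. In microglia it was at 2.91 and 5.39 CPM against 13.4 and 13 CPM, a ratio of 3.18 without overlap. OPC held 1 UMI in 3M-1 and 1 in 6M-1. In astrocytes 2 UMIs were found, both in 6M-2. The share of thinned oligodendrocytes with a Bcl3 UMI was 0.244%, 0.144%, 1.98% and 2.12% (0.235%, 0.239%, 3.87% and 4.79% without thinning), against at most 0.0845% of excitatory neurons. Thus Bcl3 was detected in few oligodendrocytes even at 6M. The corresponding shares for Serpina3n were 0.244%, 0.144%, 1.5% and 2.63% (0.588%, 0.120%, 2.60% and 5.46% without thinning), and for C4b 2.93%, 2.87%, 21.2% and 25.6% (6.94%, 3.47%, 34.3% and 42.5% without thinning).

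**Figure D2:**
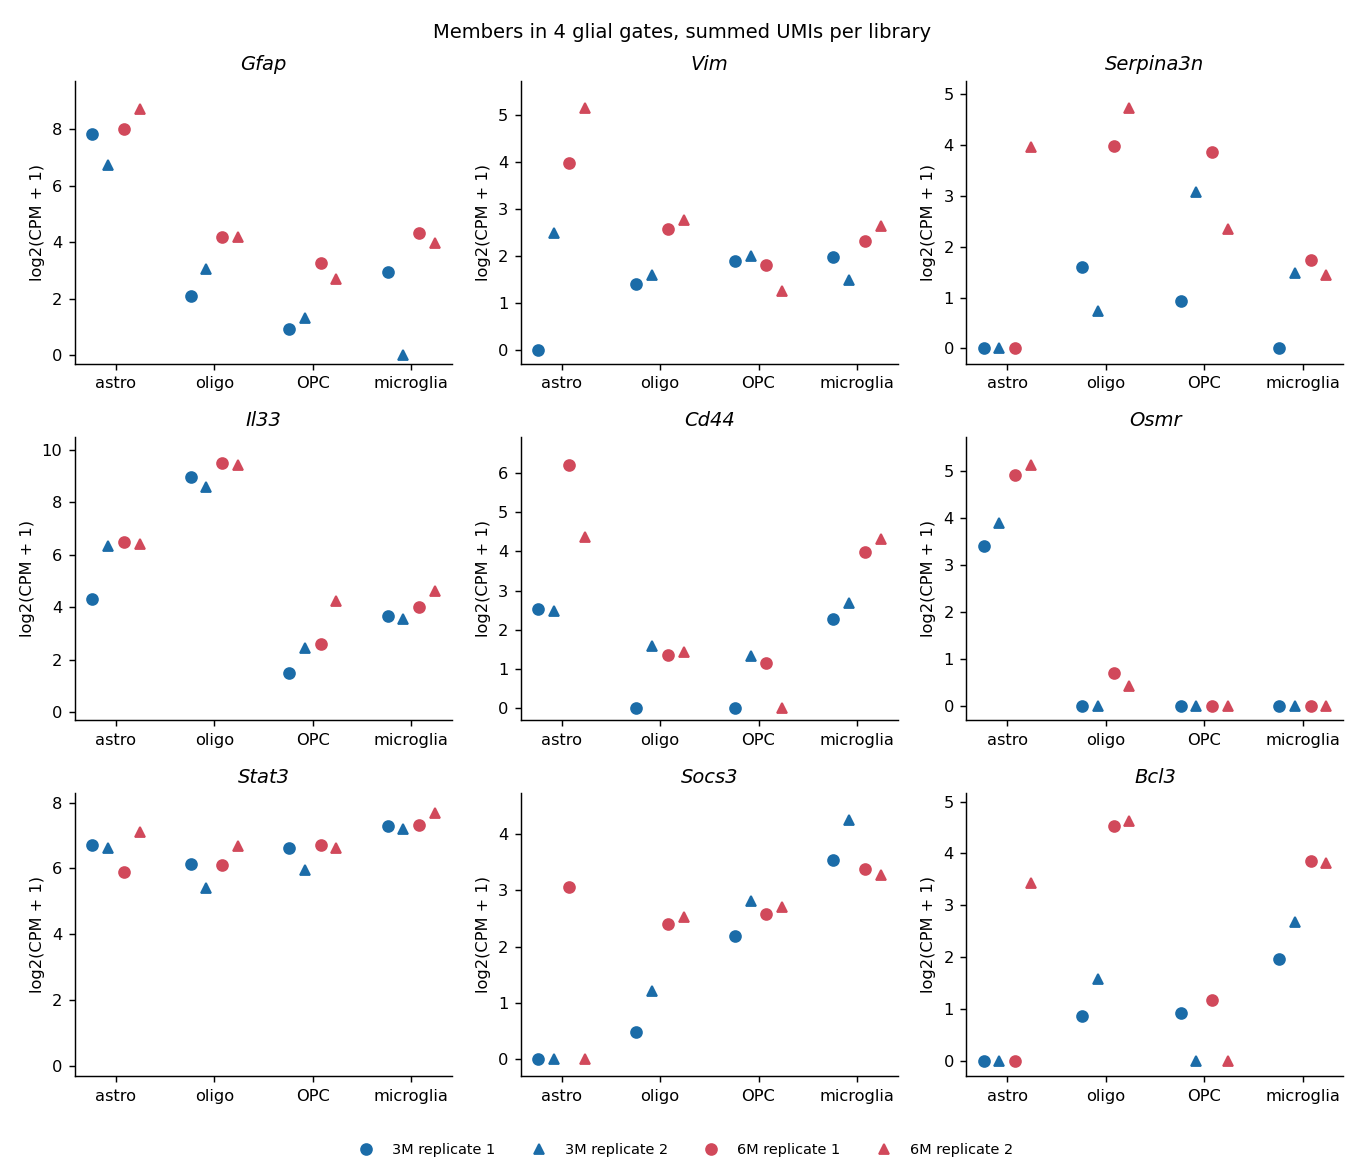
Each panel plots 1 gene as log2(CPM + 1) of the UMIs summed per library and gate, with astrocytes (astro), oligodendrocytes (oligo), OPC and microglia on the x axis; blue symbols are 3M and red symbols are 6M, and circles and triangles are replicates 1 and 2. Gfap is highest in astrocytes (106.5 to 420 CPM), Il33 in oligodendrocytes (378 to 714 CPM), and the 6M symbols of Serpina3n and Bcl3 stand far above the 3M symbols in oligodendrocytes.

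**Figure D3:**
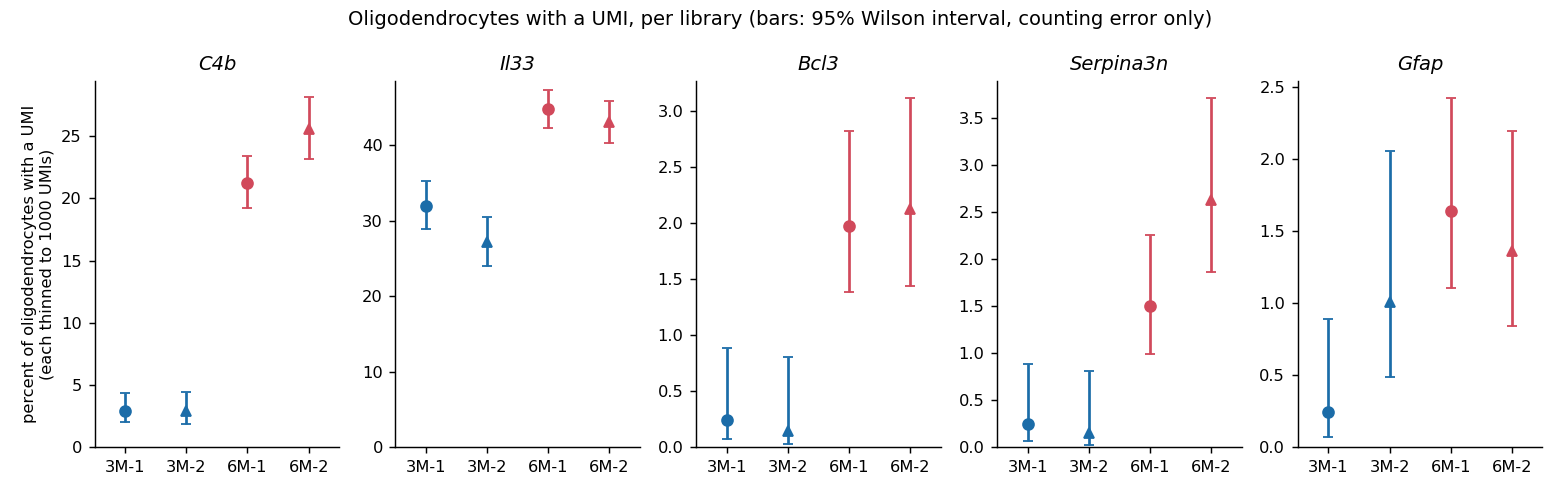
Percent of oligodendrocytes with at least 1 UMI (y axis) in each library (x axis) after thinning every nucleus to 1000 UMIs, for C4b, Il33, Bcl3, Serpina3n and Gfap; bars are 95% Wilson intervals and cover counting error only. Both 6M libraries are above both 3M libraries for each of the 5 genes, and for Gfap the intervals of 3M-2 (1.00%) and 6M-2 (1.36%) overlap.

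Of the 10 genes, both 6M libraries were above both 3M libraries for 7 in oligodendrocytes, 6 in microglia, 5 in astrocytes and 3 in OPC. Members under the low-count filter are included here. Among the genes tested the same order was found for 25.9% in oligodendrocytes, 21.8% in microglia, 20.2% in astrocytes and 16% in OPC. The genes were chosen on this contrast, so nothing is read from these counts. By the quasi-likelihood test of edgeR, adjusted by Benjamini-Hochberg, the age comparison called 10 of 12378 genes in oligodendrocytes (0.0808%), 38 of 11020 in microglia (0.345%), 1 of 9663 in OPC (0.0103%) and 0 of 4344 in astrocytes (0%, with 241 at an unadjusted p under 0.05). With the replicate number as a block the counts were 31, 68, 14 and 35. The low-count filter was passed by 7 of the 10 genes in oligodendrocytes, 6 in microglia, 3 in astrocytes and 1 in OPC.

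Of the pathway partners, few were called with age. C4b was at 30.8 and 23.2 CPM in 3M oligodendrocytes and at 272 and 351 CPM in 6M oligodendrocytes. It was the only gene called of 13 tested in the list of disease-associated oligodendrocyte genes (log2 fold change 3.40 ± 0.23 SE, adjusted p = 6.62e-05, edgeR), whose median was 0.60 against 0.00 for all genes. In oligodendrocytes 0 of 16 gp130, Jak and Stat genes were called (median 0.13) and 0 of 13 NF-kB genes (median 0.21). Among the Jak and NF-kB partners the largest value there was that of Nfkb1, which encodes p105 and p50, at 39.7, 43.8, 59.5 and 70.1 CPM (0.55 ± 0.20 SE, adjusted p = 0.560). Jak1 was at 31.2 to 46.6 CPM, Jak2 at 103 to 148 CPM, Nfkb2 at 2.03 to 6.63 CPM, Rela at 13.9 to 25.3 CPM, Relb at 11.9 to 17.4 CPM and Nfkbia, the inhibitor IkBα, at 19.9 to 60.5 CPM, none of them called. In microglia 0 of 17 gp130, Jak and Stat genes (median -0.02) and 0 of 17 NF-kB genes (median 0.18) were called, against a median of 0.00 for all genes. In astrocytes 1 of 7 pan-reactive genes, 2 of 11 neurotoxic-type genes and 0 of 12 protective-type genes passed the low-count filter, and none was called.

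Differences between glial cell types within the same mice were tested in 1 fit of 16 sums with the mouse as block. The fit pools both ages, so the 6M sums of the comparison that selected the genes enter it. Of the 10 genes, 6 passed the low-count filter. Among all 12212 genes tested, the share called was 38.1% for astrocytes against oligodendrocytes, 29.9% for astrocytes against OPC, 46% for astrocytes against microglia, 50.7% for oligodendrocytes against OPC, 59.2% for oligodendrocytes against microglia and 60.7% for OPC against microglia. Being called was thus common for any gene.

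Gfap was higher in astrocytes than in each other glial type, by a log2 fold change of 4.36 ± 0.25 (SE) over oligodendrocytes (adjusted p = 3.0e-17), 5.93 over OPC (adjusted p = 1.5e-16) and 4.81 over microglia (adjusted p = 6.2e-17). Oligodendrocytes were higher than OPC by 1.57 (adjusted p = 0.00404). The differences of oligodendrocytes from microglia (0.45, adjusted p = 0.239) and of OPC from microglia (-1.12, adjusted p = 0.0594) did not pass the test. Il33 had the widest range: oligodendrocytes were above OPC by 6.54 ± 0.24, above microglia by 5.66 ± 0.20 and above astrocytes by 3.30 on the log2 scale, and astrocytes were above OPC by 3.24 and above microglia by 2.36, all called. Cd44 rested on few UMIs: 0, 3, 5 and 5 in oligodendrocytes and 0, 1, 1 and 0 in OPC, beside the 1, 1, 10 and 4 in astrocytes and the 4, 3, 19 and 22 in microglia. It was higher in astrocytes than in oligodendrocytes (3.95, adjusted p = 7.0e-06, edgeR) and lower in oligodendrocytes than in microglia (-2.73, adjusted p = 1.2e-05). But Cd44 did not pass the low-count filter when either of the 6M libraries was left out. Its highest sums were 73.2 and 19.5 CPM in 6M astrocytes and 15.0 and 19.0 CPM in 6M microglia. These belong to the comparison that selected the gene, so its calls only describe them. At 3M astrocytes held 1 and 1 UMIs, microglia 4 and 3 and oligodendrocytes 0 and 3. These counts are too few to show an order. No fold is given against OPC, which held 2 UMIs in all. The Cd44 difference of astrocytes from microglia did not pass the test (1.22, adjusted p = 0.0674).

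Serpina3n was higher in oligodendrocytes than in microglia by 3.29 ± 0.58 (SE) on the log2 scale (adjusted p = 5.9e-06, edgeR). At 3M oligodendrocytes had 2.03 and 0.66 CPM and microglia 0 and 1.80 CPM, so this difference lay in the 6M mice. OPC were higher than microglia by 2.53 (adjusted p = 0.00372, and 0.0861 without the block, edgeR). They were above microglia in 3M-2 (7.49 against 1.80 CPM, from 5 and 1 UMIs) and in 6M-1 (13.6 against 2.36 CPM). In 6M-2 OPC had 4.14 CPM against 1.73 CPM, from only 3 and 2 UMIs. In 3M-1 they had 1 UMI (0.90 CPM) against 0, which shows no direction. Oligodendrocytes and OPC differed by 0.76 with a 95% interval from -0.15 to 1.68 (adjusted p = 0.178), and by 1.21 without 3M-2 (adjusted p = 0.0249). Astrocytes held 3 Serpina3n UMIs in all, and no difference from them passed the test, with wide intervals such as -3.26 to 0.22 against oligodendrocytes. Like Cd44, Serpina3n and Bcl3 did not pass the low-count filter of this fit when 6M-1 or 6M-2 was left out. The calls of Serpina3n and Bcl3 in this fit thus rest on both 6M libraries, which belong to the comparison that selected them. OPC and astrocytes held only 2 Bcl3 UMIs each in all, against 147 in oligodendrocytes, so no fold or call is given against them. The Bcl3 difference of oligodendrocytes from microglia (0.90, adjusted p = 0.0252, edgeR) was not held by DESeq2 (adjusted p = 0.526). At 3M Bcl3 was lower in oligodendrocytes (0.811 and 1.99 CPM) than in microglia (2.91 and 5.39 CPM), from 2 or 3 UMIs per sum. At 6M it was higher in oligodendrocytes (22.2 and 23.8 CPM against 13.4 and 13 CPM), so this difference lay in the 6M mice. Stat3 was lower in oligodendrocytes (-0.82 ± 0.13, adjusted p = 8.9e-07) and OPC (-0.59 ± 0.14, adjusted p = 5.4e-04) than in microglia, and its other 4 differences did not pass the test.

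**Figure D4:**
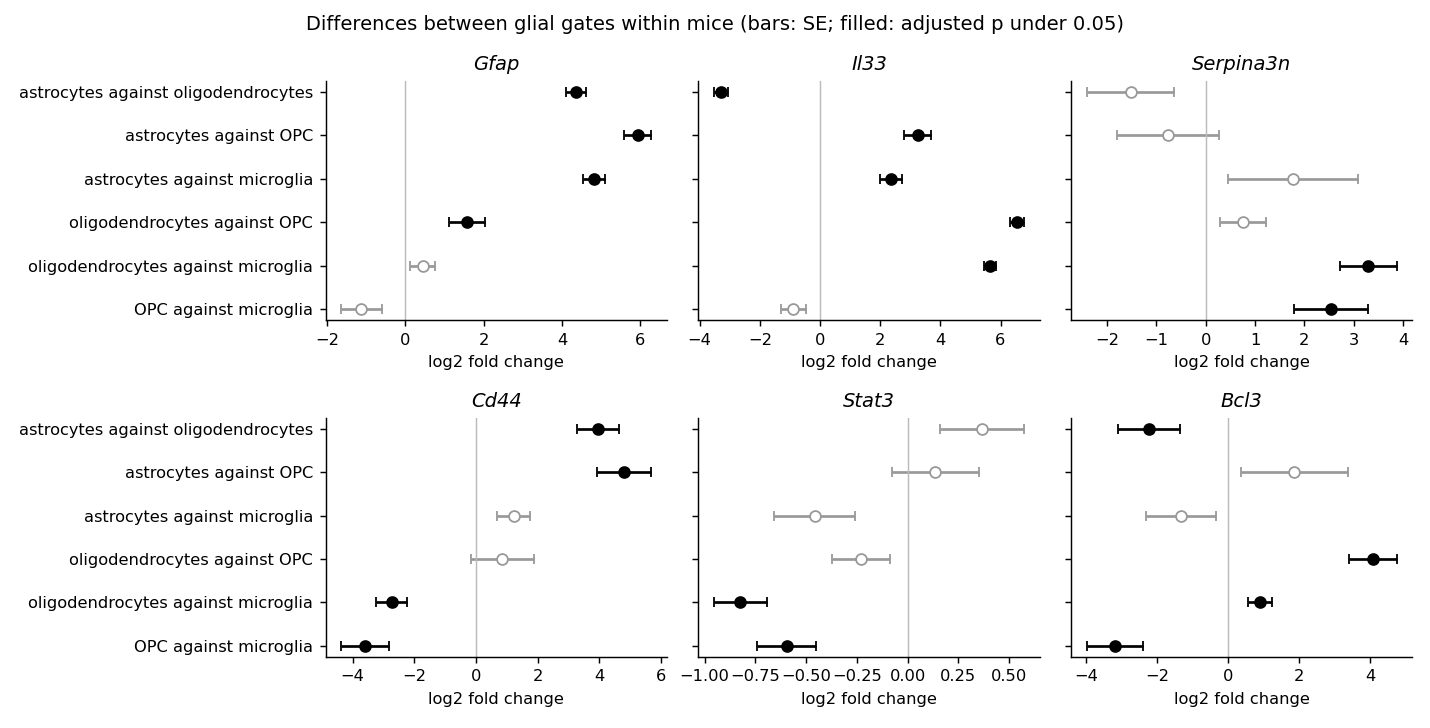
Each panel gives, for 1 gene, the log2 fold change (x axis) between each pair of glial gates named on the y axis, first gate over second; bars are SE and filled black points have an adjusted p under 0.05. Gfap separates astrocytes from all others (4.36 to 5.93), Il33 separates oligodendrocytes (6.54 over OPC), and Stat3 stays within 1 log2 unit in every pair; points of Cd44 against OPC, and of Bcl3 against OPC or astrocytes, rest on 2 UMIs in those gates.

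The partners were divided differently among the glia. Against microglia, oligodendrocytes were lower in Il6ra (log2 fold change -7.04), Nfkb1 (-2.28), Jak1 (-2.14), Il6st (-1.66) and Relb (-1.4) and higher in Il1rap (4.46) and Jak2 (1.36), all called. Oligodendrocytes, in which most Bcl3 UMIs of the 6M mice lay, were also lower in Nfkb1 than OPC (-0.81, adjusted p = 9.9e-06, edgeR). They were lower in it than astrocytes as well (astrocytes against oligodendrocytes 1.02, adjusted p = 6.5e-05, edgeR). Synm was higher in oligodendrocytes than in astrocytes (astrocytes against oligodendrocytes -2.27, adjusted p = 4.6e-04), unlike Gfap.

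Genes with the most similar pattern to 4 of the members over the 16 glial sums were taken by Pearson's r of log2(CPM + 1) among 12206 genes. These sums share libraries and cell types, so r is a description. Nearest to Gfap were Mt2 (0.947), which encodes a metallothionein, Rmst (0.932) and A830019P07Rik (0.927). Nearest to Il33 were Iqsec1 (0.946), Ppfibp2 (0.945) and the nuclear noncoding RNA Neat1 (0.938). Among those nearest to Bcl3 were Lamp1 (0.869), a lysosomal membrane protein gene, and Fkbp8 (0.815). The likeness was weaker for Serpina3n, with D10Wsu102e (0.849), 4930551O13Rik (0.785) and Mest (0.774). Serpina3n and Bcl3 had few UMIs in most of these sums, so their nearest genes are uncertain. In 6M-2 astrocytes, for example, 3 and 2 UMIs gave 14.7 and 9.77 CPM.

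To ask whether these genes were expressed in the oligodendrocytes that carried the complement gene C4b, oligodendrocytes thinned to 1000 UMIs were divided into those with and without a C4b UMI, and their full counts were compared within each mouse. The 3M libraries held 24 and 20 C4b-positive nuclei and the 6M libraries 311 and 301, beside 795, 677, 1155 and 876 C4b-negative nuclei in the same order. Bcl3 was at 14.2, 0, 44.5 and 44.7 CPM in C4b-positive nuclei, from 1, 0, 29 and 34 UMIs, and at 0.42, 2.21, 16.4 and 16.6 CPM in C4b-negative nuclei. It was higher in the C4b-positive nuclei of both 6M mice. In the 3M mice 3 UMIs would correspond to 42.5 and 84.6 CPM in these small sums, so they could show no direction. Serpina3n was at 14.2, 0, 30.7 and 40.8 CPM against 1.69, 0.73, 10.9 and 19.8 CPM, with 1 and 0 UMIs in the C4b-positive nuclei of the 3M mice, and was likewise higher in both 6M mice. Stat3 was at 113, 84.6, 99.7 and 139 CPM against 67.9, 38.2, 59.8 and 87.6 CPM and was higher in all 4 mice, from 8 and 3 UMIs in the C4b-positive nuclei of the 3M mice.

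Bcl3 was 2.76-fold higher in C4b-positive oligodendrocytes (log2 fold change 1.46 ± 0.30 SE, adjusted p = 0.00129), Serpina3n 2.38-fold (1.25 ± 0.32, adjusted p = 0.0463) and Stat3 1.63-fold (0.70 ± 0.16, adjusted p = 0.0120) by edgeR's quasi-likelihood test with the mouse as block. These 3 were among 20 of 9545 genes called (0.21%), which also included Cd9, a tetraspanin gene, at 0.72 (adjusted p = 9.5e-05). Bcl3 and Serpina3n had 1 or no UMI in the C4b-positive nuclei of each 3M mouse. Their calls thus rest on 6M oligodendrocytes, which belong to the comparison that selected the genes, and only describe these nuclei. Il33 differed by 0.39 ± 0.11 (adjusted p = 0.215) and was called under other settings, among them without 3M-1 (adjusted p = 0.00659) and in thinning draws 3 and 4 (adjusted p = 0.0369 and 0.00294). Gfap had no UMI in C4b-positive nuclei of either 3M mouse, was at 15.3 and 19.7 CPM in those of the 6M mice, against 17.6 and 16.1 CPM in C4b-negative nuclei, and differed by 0.03 overall (adjusted p = 0.998). The NF-kB and gp130 partners did not pass this test, such as Nfkb1 (0.16, adjusted p = 0.998), Relb (0.01, adjusted p = 0.998) and Il6st (0.14, adjusted p = 0.998).

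The calls in this split rested on the pairing within mice and on both 6M libraries. DESeq2 called none of the 3 (adjusted p = 1.00 each), nor did edgeR without the mouse block (adjusted p = 0.438 for Bcl3, 0.841 for Serpina3n and 0.801 for Stat3) or without 6M-1 or 6M-2 (adjusted p = 1.00 and 0.999). Without the 6M libraries in turn, the Bcl3 log2 fold change was 1.49 and 1.49. Serpina3n was also lost without 3M-1 (adjusted p = 0.0645). In 3 further random thinnings Bcl3 was called each time (1.71, 1.59 and 1.46), as was Serpina3n (2.16, 2.33 and 1.84), whereas Stat3 was lost in 1 of them (0.63, adjusted p = 0.0717). Summed microglia markers were at 652, 56, 135 and 145 CPM in C4b-positive and at 101, 130, 150 and 165 CPM in C4b-negative oligodendrocytes, lower in the C4b-positive nuclei of 3 of the 4 mice, 3M-1 being the exception. Whether the C4b difference depended on age was asked with an interaction test, in which 12 of 10516 genes (0.114%) were called. For Bcl3 (-1.35 ± 1.94 SE), Serpina3n (-1.26 ± 1.93) and Gfap (5.74 ± 5.99) the C4b-positive nuclei of the 3M mice held 1 or no UMI, so the test could not show a dependence and nothing is read from it. Il33 differed by 0.58 ± 0.23 (adjusted p = 0.517, edgeR) and Stat3 by 0.10 ± 0.50 (adjusted p = 0.988, edgeR). The median over all genes in this fit was 0.31, above the Stat3 value, so the Il33 value is to be read against 0.31. Without 3M-2, which leaves 1 mouse at 3M, the Il33 value was 0.90.

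**Figure D5:**
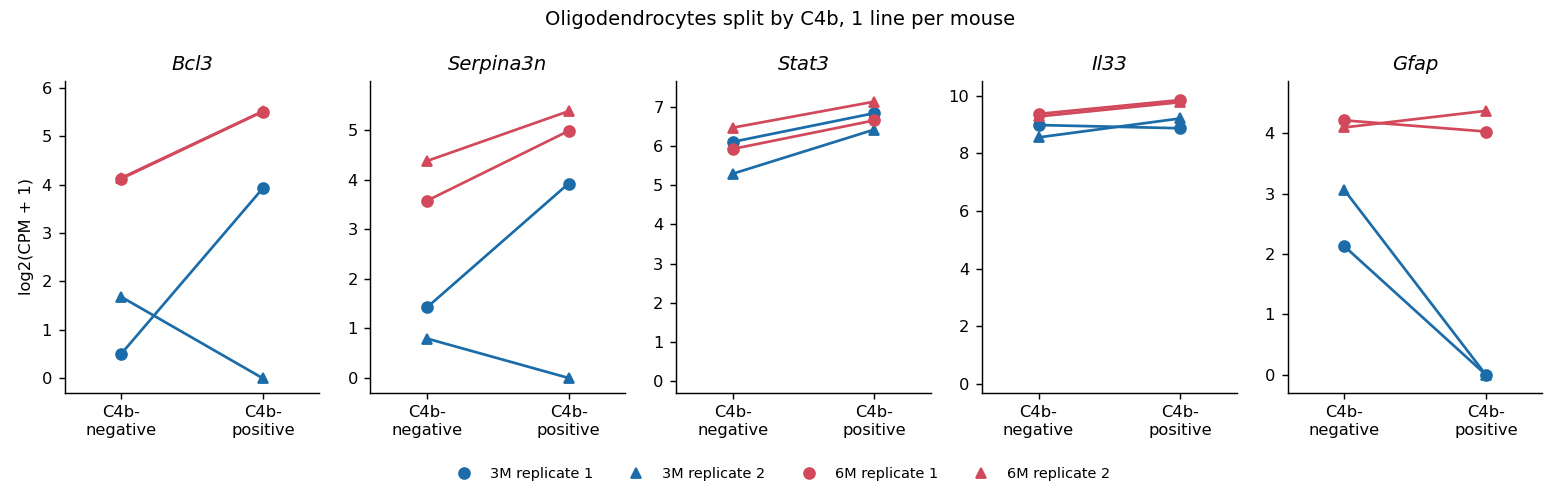
Lines join C4b-negative and C4b-positive oligodendrocytes of the same mouse (x axis) for 5 genes, as log2(CPM + 1) of summed UMIs (y axis); blue is 3M and red is 6M. Stat3 is higher in the C4b-positive nuclei of all 4 mice, and Bcl3 and Serpina3n in those of both 6M mice; the 3M values of Bcl3, Serpina3n and Gfap in C4b-positive nuclei are 1 or 0 UMIs and show no direction.

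In microglia, nuclei that carried at least 2 of 12 markers of disease-associated microglia (DAM) after thinning were compared with the others. The 3M libraries held 59 and 21 DAM-gated nuclei and the 6M libraries 92 and 78. Of the 10 genes, Stat3 alone passed the low-count filter. It was at 163, 333, 135 and 412 CPM in DAM-gated and at 153, 122, 163 and 166 CPM in other microglia, so that it was higher in 3 of the 4 mice and lower in 6M-1. The difference passed the test (log2 fold change 0.61 ± 0.20 SE, adjusted p = 0.0419), as did 600 of 6428 genes (9.33%), but without 6M-2 it was 0.18 (adjusted p = 0.801), and in the other 3 thinning draws it was 0.30, 0.26 and 0.46 (adjusted p = 0.450, 0.441 and 0.113). It was also lost without 3M-1 (adjusted p = 0.0774) or 3M-2 (adjusted p = 0.112). No dependence on age was called (0.19, adjusted p = 0.995), where 2 of 7631 genes were (0.0262%). Of 12 NF-kB genes tested, 4 were higher in DAM-gated microglia: Nfkbiz (1.41), another atypical IkB gene, Tnfaip3 (1.25), the gene for the NF-kB inhibitor A20, Relb (1.17) and Nfkb1 (0.41). Of 11 gp130, Jak and Stat genes, Lifr (-1.02) and Il6ra (-0.79) were lower and none was higher.

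Astrocytes with a Gfap UMI after thinning numbered only 8, 6, 8 and 16. Of the other genes, only Stat3 could be tested against Gfap-negative astrocytes, and its difference of 0.79 ± 0.42 did not pass (adjusted p = 0.779), where 15 of 1541 genes were called (0.973%). Osmr UMIs numbered 2, 2, 4 and 4 in Gfap-positive and 0, 1, 0 and 3 in Gfap-negative astrocytes, which were more numerous in every library.

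In excitatory and inhibitory neurons, no difference between 6M and 3M passed the test for any of these genes. Both 6M libraries were above both 3M libraries for 7 of the 10 genes in excitatory neurons and for 3 in inhibitory neurons, against 21.7% and 17.7% of the genes tested, and Socs3 had the opposite order in excitatory neurons, against 15.5% of the genes tested. Members under the low-count filter are included, such as Osmr in excitatory neurons and Socs3 in inhibitory neurons (1, 0, 5 and 2 UMIs). Nothing is read from these counts. In excitatory neurons Gfap was at 0.94, 1.15, 2.68 and 2.58 CPM (log2 fold change 1.30 ± 0.29 SE, adjusted p = 0.373) and Il33 at 3.44, 5.14, 8.07 and 9.15 CPM (0.98, adjusted p = 0.441). Socs3 was at 2.16 and 2.17 CPM at 3M and 1.24 and 1.42 CPM at 6M (-0.73, adjusted p = 0.706). Cd44 was at 2.88, 2.33, 2.19 and 2.40 CPM (-0.22, adjusted p = 0.899) and Stat3 at 25, 20.7, 27.5 and 25.2 CPM (0.17, adjusted p = 0.885). Serpina3n (1.66, adjusted p = 0.514), Vim (1.08, adjusted p = 0.720) and Bcl3 (1.25, adjusted p = 0.762) had at most 1.16 CPM in any library. In inhibitory neurons Gfap (1.49, adjusted p = 0.934), Il33 (1.35, adjusted p = 0.934) and Stat3 (0.16, adjusted p = 0.956) could be tested. Over all genes 1 of 19870 was called in excitatory neurons (0.00503%) and 0 of 15410 in inhibitory neurons (0%, with 679 at an unadjusted p under 0.05). With the replicate number as a block the counts were 9 and 6, with none of these genes among them.

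The neuronal fits were repeated without 3M-2, which leaves 1 mouse at 3M, so only folds are given. The log2 fold changes were then 1.38 for Gfap and 1.22 for Il33 in excitatory neurons, and 1.4 for Il33 in inhibitory neurons. Summed oligodendrocyte markers moved in the same direction, from 57.2 and 67.6 CPM at 3M to 133 and 134 CPM at 6M in excitatory neurons and from 103 and 129 CPM to 186 and 232 CPM in inhibitory neurons, and their part in the Gfap and Il33 values of neurons was not tested. C4b behaved likewise, with 0.256 and 0.389 CPM at 3M against 2.94 and 3.84 CPM at 6M in excitatory neurons (3.35, adjusted p = 0.0951).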

How the data were processed

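Nuclei of 4 GCLC-KO cortices (2 mice at 3M, 2 at 6M) were profiled with 10x Genomics 3′ chemistry. The deposited values are raw UMI counts per gene and nucleus, which the authors made with Cell Ranger 7.0.0 (file header); the submitters' processing notes also name Seurat and mm10. As in the study, nuclei with over 7000 detected genes or over 1% mitochondrial UMIs were left out. A nucleus entered a gate with at least 3 of that cell type's markers and at least 60% of its marker UMIs from that list, with neurons divided at 80%. These limits were set after the data were seen. Doublets were not called, and nuclei in a gate could still hold up to 40% marker UMIs of other cell types. Clec7a and Fam198b were not used here.

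UMIs were summed per library and gate and tested with edgeR 4.0.16 in R 4.3.3 (TMM, filterByExpr, quasi-likelihood test, Benjamini-Hochberg over all genes tested, threshold 0.05). Alternatives included DESeq2 1.42.0. CPM are UMIs per 1000000 of the gate's sum. C4b, DAM and Gfap splits used nuclei thinned to 1000 UMIs; the first random draw made is reported, and 3 other draws were added after seeing the data. The batch numbers used equal the replicate numbers of the sample titles, and a block on them pairs same-numbered 3M and 6M libraries. Whether such libraries were processed together is not shown. The correlation of same-numbered deviations was -0.117 to 0.0465. A crossed pairing was added after seeing the data. Each library is 1 mouse. Intervals and limits for counts of 0 cover counting error only. Coordinates come from GENCODE M21 (GRCm38), and promoters from RefSeq.

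The members and gene lists were chosen with earlier results of these data known. All 10 members were named in each comparison, with fixed partners, up to 4 called genes per list and direction as needed, and the 3 most similar genes of Gfap, Serpina3n, Bcl3 and Il33. One of these similar genes is not reported here. The script was tested on simulated data.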

Additional observations from a re-analysis of the deposited data

How the results depend on the processing

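Of 213 counts of called genes recomputed, 122 stayed within 1.5 times the reported count. No called result of a test reversed its direction. Results that were not called were not checked for a change of direction. The replicate block changed the counts of the age comparisons. With it, 35 genes were called in astrocytes, 31 in oligodendrocytes, 14 in OPC, 68 in microglia, 9 in excitatory and 6 in inhibitory neurons. With crossed pairing the counts were 54 in oligodendrocytes, 28 in OPC, 169 in microglia, 118 in excitatory and 7 in inhibitory neurons. The block changed no call of these genes in neurons. DESeq2 called 34 genes in oligodendrocytes, 3 in OPC, 98 in excitatory and 5 in inhibitory neurons. Without the filter on low counts 29, 135, 20, 193, 57 and 63 were called in astrocytes, oligodendrocytes, OPC, microglia, excitatory and inhibitory neurons. The stricter gate gave 1 in astrocytes and 0 in OPC, the looser gate 3 in astrocytes and 24 in oligodendrocytes, and keeping all nuclei 0 in excitatory neurons. Leaving out 1 library gave 3 to 48 (astrocytes), 15 to 401 (oligodendrocytes), 0 to 163 (OPC), 5 to 313 (microglia), 3 to 1211 (excitatory) and 6 to 971 (inhibitory neurons), highest without 3M-2 in all but astrocytes; the lone library of an age is then assumed to vary like the others.

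Between cell types, leaving out 1 library gave 4002 to 4251 genes for astrocytes against oligodendrocytes, 3122 to 3346 against OPC, 4923 to 5266 against microglia, 5438 to 5885 for oligodendrocytes against OPC, 6544 to 7162 against microglia and 6752 to 7323 for OPC against microglia. The C4b split gave 1 with DESeq2, 13 without the count filter, 1 without the block, 38 without thinning and 1 to 23 leaving out 1 library. The DAM split gave 309, 320 without the block, 374 with the stricter gate and 317 to 567. The Gfap split gave 1 with DESeq2, 29 without the count filter, 5 without the block, 6 with the stricter gate, 6 without thinning, 3, 9 and 4 in draws 2 to 4, and 6 to 10. The age dependence of the C4b split gave 1 with DESeq2, 3 with RLE, 47 without the count filter, 1 without the block, 7 with the stricter gate, 2 without thinning, 42, 2 and 1 in the draws, and 1 to 57. That of the DAM split gave 0 with DESeq2, 1 with RLE, 0 without the count filter, 0 without the block, 4 with the looser gate, 44 without thinning, 0 in draw 2 and 0 to 5. Of 676 recomputed tests of single genes, 619 kept their side of the threshold, 38 lost it and 19 gained it. The cause was not tested. Settings in which a gene did not pass the low-count filter are not among the 676. Calls lost in that way are thus not counted, such as those of Cd44, Serpina3n and Bcl3 between cell types without 6M-1 or 6M-2. Few UMIs limited astrocytes, Bcl3, Serpina3n and Osmr, and 2 mice per age limited every age comparison.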
